A study of Mus musculus with 9 samples.

Results

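CXC chemokine ligands are small secreted proteins, named for a pair of cysteines with another residue between them, that draw white blood cells along a gradient. The 9 genes examined here (Cxcl1, Cxcl2, Cxcl5, Cxcl10, Cxcl12, Cxcl13, Cxcl14, Cxcl16 and Pf4) were chosen by name as ligands of this family, with earlier results of these data known. All 9 were found among the 27998 genes of the table. Their RNA was measured in 1 single-cell library of cells from ascites, the fluid that collects in the peritoneal cavity. The fluid came from an ovarian cancer model made with ID8-Def29/Vegf cells, a line from mouse ovarian surface epithelium engineered to carry Defb29 and Vegf, in mice labelled B6_WT. No treatment is named for this library, and the labels do not say how many mice it holds. The same line grown in culture gave 8 bulk libraries, 4 labelled Vehicle and 4 labelled Deferiprone (an iron chelator, 12 h), and these are not analysed here.

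The receptors decide which cells answer each ligand. Cxcl1, Cxcl2 and Cxcl5 act through Cxcr2 and are known for calling neutrophils into the inflamed peritoneum. Cxcl10 acts through Cxcr3 on T and NK cells and is a classic interferon target, Cxcl12 acts through Cxcr4, and Cxcl13 acts through Cxcr5 to bring B cells to the fat-associated clusters of the peritoneal cavity. Cxcl16 is made as a membrane protein that Adam10 can shed and that binds Cxcr6. Pf4, also named Cxcl4, is best known from platelet granules and is made by some macrophages as well, and Cxcl14 is a ligand whose receptor is debated.

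Of the 9 genes, 6 lie on mouse chromosome 5. By the GENCODE M21 annotation of GRCm38, in which all are protein-coding, Cxcl5 (chr5:90759360-90761624), Pf4 (chr5:90772435-90773383), Cxcl1 (chr5:90891241-90893115) and Cxcl2 (chr5:90903871-90905938) stand close together on the plus strand. Cxcl10 (chr5:92346638-92348889, minus strand) and Cxcl13 (chr5:95956951-95961068, plus strand) lie further along. Cxcl12 lies at chr6:117168535-117181367 on the plus strand, Cxcl16 at chr11:70453983-70459984 and Cxcl14 at chr13:56288643-56296551, both on the minus strand. The build that the counts were made on is not given in the sources used here, so these positions come from the annotation alone.

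The RefSeq promoter table of GRCm38.p6 held entries for 7 of the 9 genes, and Cxcl5 and Cxcl16 had none. The 250 bases before the start site are shown for 4 genes whose cell patterns are described below: Cxcl1 and Cxcl2, of which the second was more frequent in macrophages with the first, Cxcl10, and Pf4, for which the shares overlapped. Cxcl1 is chr5:90890995-90891244, Cxcl2 is chr5:90903649-90903898 and Pf4 is chr5:90772185-90772434, all on the plus strand, and Cxcl10 is chr5:92348890-92349139 on the minus strand. Each is written 5′ to 3′ in the direction of the gene. Capitals mark matches, on either strand, to the NF-kappaB consensus, to the interferon response pattern GAAANNGAAA and to the AP-1 pattern TGANTCA.
Cxcl1: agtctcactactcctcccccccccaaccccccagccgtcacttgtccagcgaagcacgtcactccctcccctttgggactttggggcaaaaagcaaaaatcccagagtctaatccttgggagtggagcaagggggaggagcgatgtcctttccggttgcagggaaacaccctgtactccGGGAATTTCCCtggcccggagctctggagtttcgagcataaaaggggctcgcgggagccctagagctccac
Cxcl2: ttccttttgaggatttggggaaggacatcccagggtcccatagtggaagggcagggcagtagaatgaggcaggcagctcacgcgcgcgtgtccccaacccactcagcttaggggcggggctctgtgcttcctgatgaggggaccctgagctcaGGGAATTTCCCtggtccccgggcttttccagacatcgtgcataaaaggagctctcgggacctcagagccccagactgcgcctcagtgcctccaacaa
Cxcl10: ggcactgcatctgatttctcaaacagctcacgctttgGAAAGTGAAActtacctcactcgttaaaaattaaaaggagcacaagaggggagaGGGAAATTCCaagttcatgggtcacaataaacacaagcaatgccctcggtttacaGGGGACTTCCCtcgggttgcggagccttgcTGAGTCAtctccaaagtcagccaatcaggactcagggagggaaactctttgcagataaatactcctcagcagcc
Pf4: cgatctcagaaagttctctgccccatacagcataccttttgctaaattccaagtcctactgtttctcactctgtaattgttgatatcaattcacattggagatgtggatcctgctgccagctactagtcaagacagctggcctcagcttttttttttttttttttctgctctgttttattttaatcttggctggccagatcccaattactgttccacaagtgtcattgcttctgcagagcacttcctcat

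Cxcl1 and Cxcl2 both held the match GGGAATTTCC to the NF-kappaB consensus, at 71 to 62 bases before the start of Cxcl1 and at 97 to 88 bases before that of Cxcl2. In each case a match on the other strand overlapped it, shifted by 1 base. These distances count from the RefSeq start sites. The RefSeq windows of Cxcl1 and Cxcl2 end inside the GENCODE positions of these genes, so distances from the GENCODE starts are shorter. Cxcl10 held NF-kappaB matches at 159 to 150 and at 104 to 95 bases upstream, the latter overlapping a further match, together with 1 interferon pattern at 213 to 204 bases and 1 AP-1 pattern at 74 to 68 bases. The Pf4 window held none of the 3 patterns. Over all 32851 promoter entries of the same length, 7.25% held an NF-kappaB match, 2.98% the interferon pattern and 6.75% the AP-1 pattern. Of the 7 genes with an entry, 3 held an NF-kappaB match and 2, Cxcl10 and Cxcl14, held the interferon pattern. A match describes letters in the window and is no evidence of binding.

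Of 737280 barcodes, 6442 held at least 500 UMIs (unique molecular identifiers, each standing for 1 captured RNA molecule) and 200 genes with at most 15% mitochondrial UMIs. Tumour-like cells were those with at least 3 UMIs over Krt8, Krt18, Krt19, Wt1 and Upk3b, and macrophages those with at least 3 UMIs over the complement genes C1qa, C1qb and C1qc, each with at most 1 UMI of the other set. Dendritic cells (DC) had at least 1% of their UMIs in MHC class II genes (H2-Aa, H2-Ab1, H2-Eb1 and Cd74), at most 1 C1q UMI and none of Cd79a and Cd79b. These rules gave 3660 tumour-like cells with a median of 5007 UMIs, 1076 macrophages with 1639.5 and 530 DC with 1380.5, while 1177 cells met none of the class rules. Markers outside the rules went with the names: 8 macrophage genes such as Lyz2 and Apoe summed to 51037 CPM (UMIs per 1000000 UMIs) in macrophages and 193 CPM in tumour-like cells, and 11 DC genes to 719 CPM in DC and 152 CPM in macrophages. The tumour-like rule takes genes that mesothelial cells of the host share, so tumour and mesothelial cells cannot be told apart by it.

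A class written for stromal cells, with at least 4 UMIs over Col1a1, Col1a2, Col3a1, Mgp and Dcn and at most 1 C1q UMI, did not stand apart. Of its 725 cells, 704 (97.1%) were also tumour-like, and the median depth of the class was 6966 UMIs. Of 8 stromal genes outside the rule, only Lum was at 0 UMIs in it. The 8 summed to 1444 CPM against 1207 CPM in tumour-like cells, most of it Sparc in both (1352 and 1125 CPM). The cells of this class are therefore called cells with matrix genes. Only 15 cells gave these genes at least 0.5% of their UMIs, a cutoff chosen after seeing the data. They are taken up under Cxcl1 and Cxcl12.

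All levels below are in CPM of a class's UMIs, with 95% exact Poisson intervals that cover counting error in this 1 library and not differences between mice. With no replicate library there is no test and no p-value. Since classes differ in depth, shares of cells with a UMI are given after each cell was thinned at random to 1000 UMIs, beside the share before thinning. Levels of different genes are not ranked against each other.

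Cxcl2, a Cxcr2 ligand, was highest in macrophages. It gave 3084 UMIs in macrophages, 1618 CPM (1562 to 1676), and was found in 626 of 1076 of them. DC held 170 UMIs, 211 CPM (181 to 245), tumour-like cells 132 UMIs, 6.60 CPM (5.52 to 7.83), and cells with matrix genes 27 UMIs, 5.19 CPM (3.42 to 7.55). The 1177 cells of no class held 476 UMIs, 222 CPM (203 to 243), which is 12.3% of the Cxcl2 UMIs of kept cells. At 1000 UMIs a cell, 50.2% of macrophages (47.0 to 53.4) had a Cxcl2 UMI against 7.93% of DC (5.52 to 10.96) and 0.693% of tumour-like cells (0.449 to 1.02). Before thinning the shares were 58.2%, 10.6% and 3.06%.

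The level of Cxcl2 in macrophages was 7.66-fold (6.57 to 8.998) that of DC and 245-fold (206 to 294) that of tumour-like cells. The tumour-like value lay within the limit that free RNA sets. Judged by Apoe, the free-RNA gene least raised in tumour-like cells, at most 4.66% of their UMIs came from free RNA, which allows 6.85 CPM of Cxcl2, and by the barcodes with 100 to 200 UMIs the limit is 29.4 CPM. Their Cxcl2 level was 0.408% of the macrophage level, beside 0.378% for the summed macrophage genes, 0.346% for Lyz2 and 0.356% for Apoe. How much of the tumour-like Cxcl2 is free RNA was not tested. In DC the Cxcl2 level was 13.0% of that in macrophages. The macrophage genes stood at 3.27% there when summed, which is mostly Apoe and Lyz2, and singly at 16.2% for Cd68, 15% for Fcgr1, 13.9% for Adgre1 and 8.74% for Csf1r. Free RNA allows 17.7 CPM of Cxcl2 in DC.

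Cxcl2 was spread over many macrophages. Among those with a UMI the median was 3 UMIs, 238 held 5 or more, and the highest cell held 33 UMIs. The 11 highest macrophages, 1% of the class, held 8.27% of its Cxcl2 UMIs.

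Cxcl1, the close relative of Cxcl2 on chromosome 5, was shared between macrophages and tumour-like cells. It gave 161 UMIs in macrophages, 84.5 CPM (71.9 to 98.6), 683 UMIs in tumour-like cells, 34.2 CPM (31.6 to 36.8), and 202 UMIs in cells with matrix genes, 38.8 CPM (33.7 to 44.6). In DC it had 17 UMIs, 21.1 CPM (12.3 to 33.8), of which 2 cells held 14. Macrophages stood 2.47-fold (2.07 to 2.94) above tumour-like cells. This was the reverse of where the molecules were: 70.2% of the Cxcl1 UMIs of all kept cells lay in tumour-like cells and 16.5% in macrophages, whereas 79.9% of Cxcl2 UMIs lay in macrophages and 3.42% in tumour-like cells.

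Free RNA allows 1.07 CPM of Cxcl1 in tumour-like cells by the barcodes with 1 to 50 UMIs, far under the 34.2 CPM measured, and 13.5 CPM by those with 100 to 200 UMIs. At 1000 UMIs a cell, 3.41% of tumour-like cells (2.84 to 4.05) and 5.16% of macrophages (3.84 to 6.76) had a Cxcl1 UMI, and before thinning 10.5% and 8.27%. In tumour-like cells the UMIs were uneven. The highest cell held 14, 20 cells held 5 or more, and the 37 highest cells, 1% of the class, held 29.1% of all of them. The 15 cells richest in matrix genes, of which 10 were also tumour-like, held 14 Cxcl1 UMIs in 6 cells, 433 CPM (237 to 726). Macrophages stood 2.18-fold (1.76 to 2.69) above cells with matrix genes, but the 21 cells with matrix genes that were not tumour-like held 9 Cxcl1 UMIs, 140 CPM, and against them the ratio was 0.603 (0.310 to 1.34).

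Cxcl5, the other Cxcr2 ligand of the set, gave 1 UMI in all kept cells, in a tumour-like cell. No Cxcl5 UMI was found in the 1905866 UMIs of the macrophages, which allows up to 1.57 CPM at 3 counts.

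**Figure D1:**
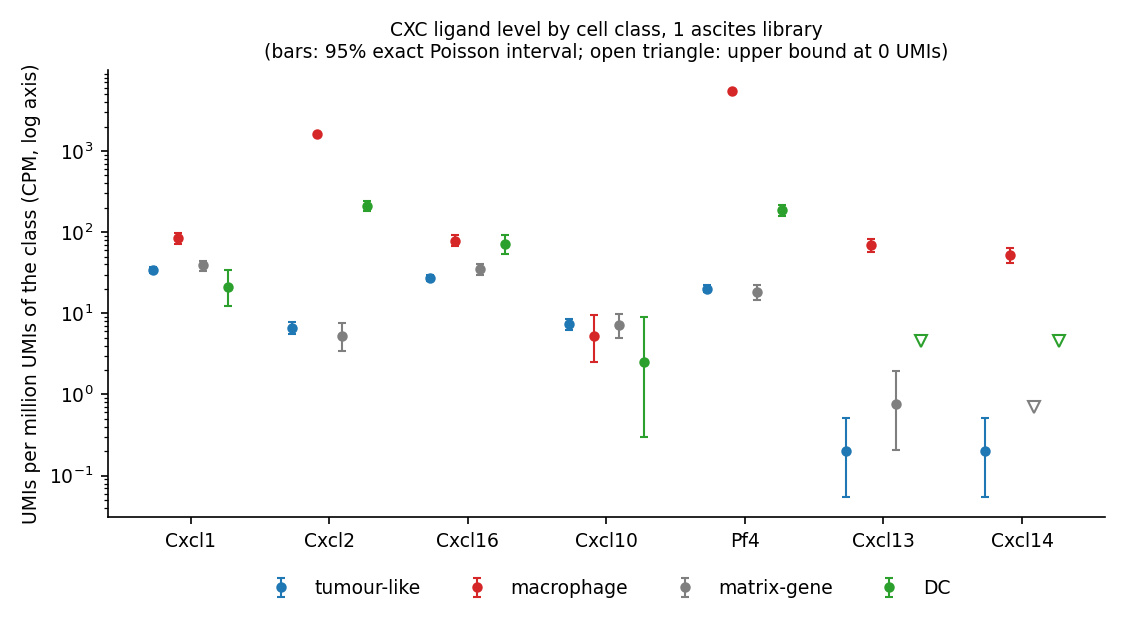
Level of 7 CXC ligands (CPM, log axis) in tumour-like cells, macrophages, cells with matrix genes and DC. Points are levels with 95% exact Poisson bars, and open triangles are the upper bounds of classes with 0 UMIs. Cxcl2 and Pf4 in macrophages stand at 1618 and 5445 CPM, while the bars of all 4 classes overlap for Cxcl10 and those of macrophages and DC overlap for Cxcl16.

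Pf4 gave 10378 UMIs in macrophages, 5445 CPM (5341 to 5551), and 817 of the 1076 held it. DC had 149 UMIs, 185 CPM (157 to 217), tumour-like cells 401 UMIs, 20.1 CPM (18.1 to 22.1), and cells with matrix genes 95 UMIs, 18.3 CPM (14.8 to 22.3). The macrophage level was 29.4-fold (25.0 to 34.8) that of DC and 272-fold (246 to 301) that of tumour-like cells. Of all Pf4 UMIs in kept cells, 86.2% were in macrophages and 9.27% in cells of no class.

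As with Cxcl2, the tumour-like Pf4 level lay within what free RNA allows, 23.3 CPM by the lowest barcodes and 188 CPM by those with 100 to 200 UMIs, and it was 0.368% of the macrophage level. Tumour-like cells had a Pf4 UMI in 9.40% of cells before thinning and 2.30% (1.84 to 2.84) at 1000 UMIs, against 72.5% (69.6 to 75.3) of macrophages. One tumour-like cell held 23 of the 401 UMIs. In DC the Pf4 level was 3.398% of the macrophage level. The macrophage genes stood there at 3.27% when summed, which is mostly Apoe and Lyz2, and singly from 2.60% for Apoe to 16.2% for Cd68. Free RNA allows 60.1 CPM of Pf4 in DC by the lowest barcodes and 62.1 CPM by those with 100 to 200 UMIs. Both lay under the 185 CPM measured. A DC with 54 UMIs carried much of the Pf4 in the class, and without the 2 highest cells the DC level was 105 CPM. How much of the DC Pf4 is free RNA was not tested.

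Platelets were looked for, since they store Pf4. Over the 8 platelet genes macrophages held 37 UMIs, 19.4 CPM summed, with Gp1ba, Gp5 and Tubb1 at 0. The summed level was 12.3 CPM in tumour-like cells, 12.1 CPM in cells with matrix genes and 26.1 CPM in DC. Itga2b gave 234 of the 246 UMIs in tumour-like cells and 62 of the 63 in cells with matrix genes. It gave only 1 of the 37 in macrophages and 2 of the 21 in DC, so the sums do not compare platelet RNA between classes. Ppbp, the platelet ligand whose gene is another of the CXC family, had 22 UMIs in 14 macrophages, 11.5 CPM (7.23 to 17.5). Of the neutrophil genes, Camp and Ly6g were at 0 UMIs in macrophages and the 7 genes summed to 150 CPM, most of it from S100a8 with 194 UMIs. Cells of no class held 1284 of the 1669 UMIs of these 7 genes in kept cells, 599 CPM. Whether the CXC ligand UMIs of those cells lie in neutrophils was not tested.

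Pf4 varied widely from macrophage to macrophage. The median was 4 UMIs a cell, the 90th percentile 26 and the highest cell 91. The 11 highest macrophages held 7.45% of the UMIs, and 531 macrophages held 5 or more.

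**Figure D2:**
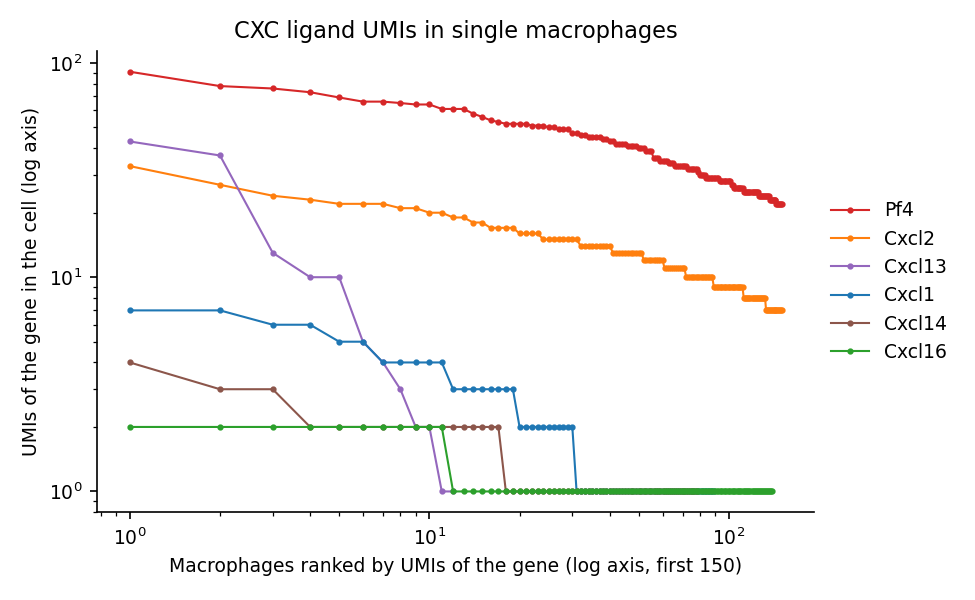
UMIs of 6 CXC ligands in single macrophages, ranked within each gene from the highest cell to the cell ranked 150, on log axes (cells with 0 UMIs are not drawn). Pf4 and Cxcl2 decline slowly from 91 and 33 UMIs, Cxcl13 drops steeply from 43 and ends after 12 cells, and Cxcl14 and Cxcl16 run at 1 or 2 UMIs over most of their cells.

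Cxcl13 was in few cells. Of its 140 UMIs in kept cells 131 were in macrophages, 68.7 CPM (57.5 to 81.6), and these came from 12 of the 1076 cells. The highest 2 cells held 43 and 37 UMIs, 61.1% of the total, and without them the macrophage level was 26.8 CPM. Tumour-like cells had 4 UMIs in 4 cells, cells with matrix genes the same number, and DC none. The macrophage level was 344-fold (131 to 1280) the tumour-like level, and 134-fold (49.3 to 511) without the 2 highest macrophages.

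Several genes were higher in the 12 macrophages with Cxcl13 than in the others, and those named here were chosen after their values were seen. Slpi, a protease inhibitor, had 3942 CPM in them, with UMIs in 8 of 12, against 71.0 CPM in the other 1064 macrophages. The scavenger receptor Marco had 1080 CPM against 131, the serum amyloid gene Saa3 36885 CPM against 3023, and Prg4, a lubricin gene known from resident peritoneal macrophages, 810 CPM in 4 of 12 cells against 5.83 CPM in 6 of 1064. The other resident genes did not all go with Prg4: Lyve1 was at 54.0 CPM against 131, Gata6 at 0 UMIs against 21, and Timd4 at 0 against 2. None of the 12 had a UMI of Ccr2, Ly6c2 or Plac8, genes of monocytes and cells newly derived from them, which stood at 207 CPM summed in the rest. Of the other genes on the monocyte list, Chil3 was at 0 UMIs in the 12 as well, while Fn1 was at 1026 CPM against 243 and Arg1 at 3294 CPM against 2119. Pf4 was not high in the 12 cells. None held more than 5 Pf4 UMIs, and the 2 cells highest in Cxcl13 held 4 and 1. Over all macrophages the 90th percentile of Pf4 was 26 UMIs.

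Cxcl14 was spread thinly over macrophages. It had 99 UMIs there, 51.9 CPM (42.2 to 63.2), in 78 cells, of which 61 held 1 UMI and the highest 4. Tumour-like cells held 4 UMIs, 0.2001 CPM (0.0545 to 0.512), and DC and cells with matrix genes none. The macrophage level was 260-fold (98.3 to 972) the tumour-like level and at least 13.9-fold that of DC, taking 3 UMIs as the limit for the DC class as a whole. At 1000 UMIs a cell, 5.47% of macrophages (4.11 to 7.12) had a UMI.

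Cxcl16 was found in all 4 classes, at a similar level in macrophages and DC. Macrophages had 150 UMIs, 78.7 CPM (66.6 to 92.4), DC 57 UMIs, 70.8 CPM (53.6 to 91.7), cells with matrix genes 181 UMIs, 34.8 CPM (29.9 to 40.3), and tumour-like cells 544 UMIs, 27.2 CPM (25.0 to 29.6). The interval of the macrophage over DC ratio, 1.11 (0.814 to 1.54), held 1. Macrophages stood 2.89-fold (2.40 to 3.47) and DC 2.84-fold (2.11 to 3.75) above tumour-like cells. At 1000 UMIs a cell it was found in 7.47% of macrophages (5.88 to 9.33), 7.69% of DC (5.32 to 10.7) and 2.44% of tumour-like cells (1.96 to 2.99), and before thinning in 12.9%, 10% and 12.8%. A count of 1 UMI was the rule in both classes: it was the count in 128 of the 139 macrophages and 410 of the 468 tumour-like cells with Cxcl16. Free RNA allows 2.13 CPM in tumour-like cells by the lowest barcodes and 9.21 CPM by those with 100 to 200 UMIs, both under the level measured. Within DC, 7 cells had at least 2 UMIs over Ccr7 and Fscn1, markers of migrating DC, and no UMI of Xcr1, Clec9a or Cd209a. They held 5 of the 57 UMIs, 450.2 CPM (146 to 1051). The 22 DC with Xcr1 or Clec9a held 7, 139 CPM (55.8 to 286), and these 2 intervals overlapped. Adam10, the protease that sheds the protein, was at 39.4 CPM in macrophages, 23.8 CPM in tumour-like cells and 14.9 CPM in DC.

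For Cxcl10 the intervals of all 4 classes overlapped. Tumour-like cells held 146 UMIs, 7.30 CPM (6.17 to 8.59), cells with matrix genes 37, 7.11 CPM (5.01 to 9.81), macrophages 10, 5.25 CPM (2.52 to 9.65), and DC 2, 2.48 CPM (0.301 to 8.97). The macrophage over tumour-like ratio was 0.719 (0.337 to 1.36). Of all Cxcl10 UMIs in kept cells 86.4% lay in tumour-like cells. The 37 highest tumour-like cells held 57.5% of them and 74 of 99 cells had 1 UMI. Free RNA allows 0.761 CPM in tumour-like cells.

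Cxcl12 had 9 UMIs in kept cells, 8 in 6 tumour-like cells and 1 in a macrophage. Of the tumour-like UMIs 6 were in cells with matrix genes too, and 2 were in the 15 cells richest in those genes. Cxcl12 is a ligand known from fibroblasts and mesothelium. Of the 8 stromal genes only Lum was at 0 UMIs in every kept cell. Pdgfra, another of them, had 6 UMIs in 3 of the 15 cells, 186 CPM (68.1 to 404).

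Read over all genes, 7 members had at least 50 UMIs over macrophages and tumour-like cells together, and 6 of them were more than 2-fold higher in macrophages. This compares with 11.8% of the 10385 genes at that depth. Cxcl13 and Cxcl14 reached 50 UMIs only through macrophages, with 131 and 99 UMIs there against 4 each in tumour-like cells. The filter itself thus favoured a high ratio for them. None of the 7 was more than 2-fold higher in tumour-like cells, where 36.7% of genes were. These counts hold for the named ligands, which were chosen with earlier results of these data known. Cxcl17, another CXC ligand with over 50 UMIs that is no member, was at least 9.18-fold higher in tumour-like cells. The median log2 ratio of macrophages over tumour-like cells was 7.94 for the 7 members and -0.57 for all genes. Against DC, 5 of 6 members were over 2-fold higher in macrophages, where 16.8% of 3729 genes were, and none in DC, where 6.38% of genes were. Here Cxcl1, Cxcl13 and Cxcl14 passed the filter only through macrophages, with 17, 0 and 0 UMIs in DC. Between DC and tumour-like cells, 3 of 5 members were over 2-fold higher in DC, where 8.18% of 10105 genes were, and 1, Cxcl1, was over 2-fold higher in tumour-like cells, where 45.7% of genes were. In that comparison Cxcl1 and Cxcl10 passed only through tumour-like cells, with 10 and 2 UMIs in DC. The tumour-like levels of Cxcl2 and Pf4 that enter these ratios lay within the limit for free RNA.

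Cxcl2 was found more often in macrophages with Cxcl1 than in those without. In a separate random draw made jointly for the genes compared, 950 macrophages were thinned to 1000 UMIs, and 44 of them had Cxcl1. Of these 44, 34 had Cxcl2, 77.3% (62.2 to 88.5), against 449 of the other 906, 49.6% (46.3 to 52.9). For Pf4 the intervals overlapped, with 70.5% (54.8 to 83.2) of the macrophages with Cxcl1 and 74.4% (71.4 to 77.2) of those without. Cxcl14 was found in 6 of the 44 and in 34 of the 906, 13.6% (5.17 to 27.4) against 3.75% (2.61 to 5.20), with intervals that just overlapped. Nfkbia was in 59.1% (43.2 to 73.7) of the macrophages with Cxcl1 against 36.3% (33.2 to 39.5), and Il1b in 18.2% (8.19 to 32.7) against 3.20% (2.15 to 4.56). Tnfaip3 was the third of the 9 inflammatory genes with intervals apart, at 18.2% (8.19 to 32.7) against 3.86% (2.71 to 5.33). For the other 6 they overlapped, and of these Ccl3 (34.1% against 40.4%), Ccl4 (15.9% against 26.6%) and Tnf (0 of 44 cells against 15 of 906) had lower shares beside Cxcl1.

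Macrophages with Cxcl2 also carried more often 2 feedback genes that NF-kappaB is known to switch on. Nfkbia, which encodes the inhibitor that holds NF-kappaB in the cytoplasm, was found in 47.8% (43.3 to 52.4) of 483 macrophages with Cxcl2 and 26.6% (22.6 to 30.8) of 467 without. Tnfaip3, which encodes the inhibitor A20, was found in 7.25% (5.10 to 9.93) and 1.71% (0.742 to 3.35). For Ccl3 and Ccl4, chemokines of another family that macrophages make in inflammation, the intervals overlapped, with 39.96% against 40.3% for Ccl3 and 27.7% against 24.4% for Ccl4. Zfp36, Nfkbiz, Il1b, Tnf and Ptgs2 all had higher shares beside Cxcl2, with intervals that overlapped. The shares were 19.3% against 16.3% for Zfp36, 7.87% against 3.85% for Nfkbiz and 5.18% against 2.57% for Il1b. For Tnf they were 2.69% against 0.428% and for Ptgs2 2.07% against 0.428%. Overlap of intervals does not show that shares were equal. All cells come from 1 library and share its handling, so the shares describe these cells only.

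**Figure D3:**
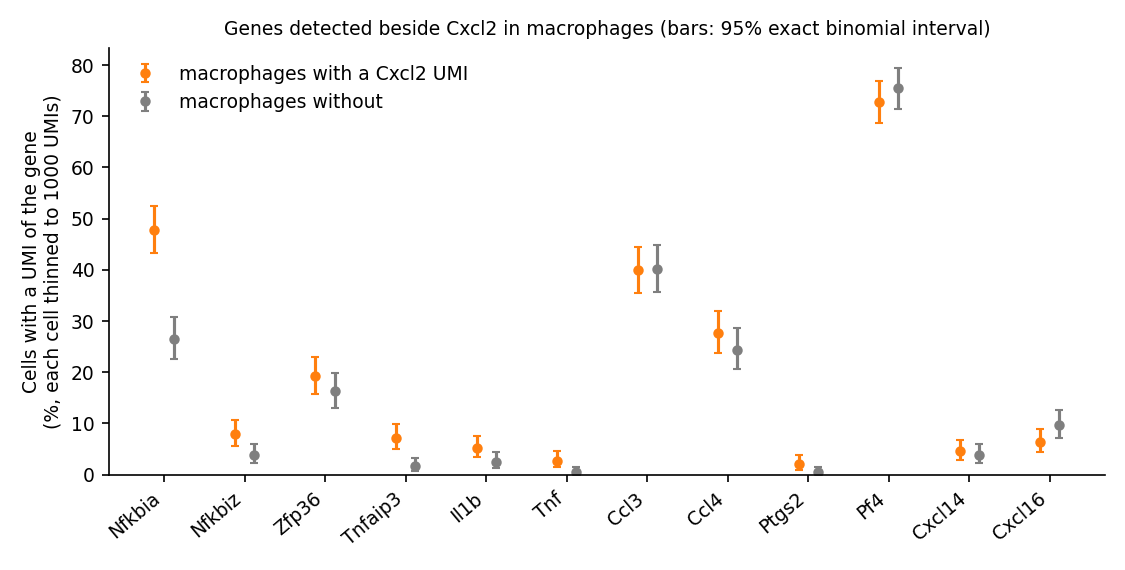
Share of macrophages with a UMI of each named gene (%, every cell thinned to 1000 UMIs) among 483 macrophages with Cxcl2 and 467 without, with 95% exact binomial bars. The shares for Nfkbia are 47.8% and 26.6% and those for Tnfaip3 7.25% and 1.71%, with bars that do not overlap, while the Pf4 and Ccl3 bars overlap.

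Over all 1076 macrophages the gene most like Cxcl2 was Nfkbia, with a Pearson r of 0.36 of log-transformed levels across cells. For Pf4 the most similar genes were Fth1, the ferritin heavy chain (r 0.51), Ctsb, a lysosomal protease (r 0.50), and Wfdc17 (r 0.50). No gene reached 0.25 for Cxcl1 or Cxcl16. Pf4 and Cxcl2 themselves had an r of 0.03 in macrophages. Over all 6442 cells both were most like genes of the macrophages, with Ccl6, C1qc and Lyz2 for Pf4 (r 0.74, 0.73 and 0.73) and Lyz2, Ccl6 and C1qb for Cxcl2 (r 0.59, 0.59 and 0.58). These cells share 1 library and differ in depth, and the values are descriptive.

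Within macrophages Pf4 was lower in cells rich in MHC class II, the genes that present antigen, a split chosen after H2-Eb1 was seen to have the lowest r with Pf4 (-0.39) among 952 genes. In the 397 macrophages with under 0.1% of their UMIs in these genes Pf4 was at 6992 CPM (6808 to 7181). It was 4775 CPM (4467 to 5099) in the 118 with 1 to 2%, and 1608 CPM (1481 to 1743) in the 237 with 2% or more. Cxcl2 took another course, from 1171 CPM (1096 to 1249) in the lowest bin to 2687 CPM (2442 to 2950) in the 94 cells with 0.5 to 1%, and 1750 CPM (1617 to 1891) at 2% or more. Below 0.2% against 1% or more, Pf4 was 2.61-fold (2.46 to 2.76) higher and Cxcl2 0.682-fold (0.627 to 0.742), while the ratios of Cxcl1, 1.03 (0.719 to 1.49), Cxcl14, 0.733 (0.464 to 1.17), and Cxcl16, 0.902 (0.622 to 1.32), had intervals that held 1. Of the 131 Cxcl13 UMIs 130 were in the cells below 0.2%. Median depth was 1835.5 UMIs below 0.2% and 1487 at 1% or more, and the share of cells with Pf4 at 1000 UMIs a cell differed too, at 86.7% and 50.9%.

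**Figure D4:**
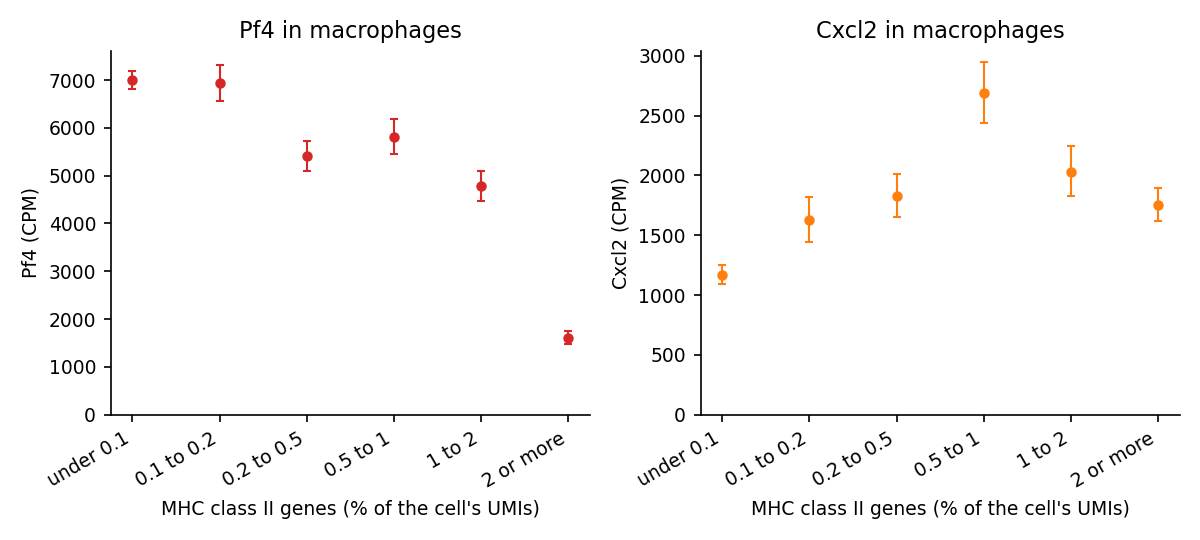
Level of Pf4 (left) and Cxcl2 (right) in macrophages binned by the percentage of their UMIs in 4 MHC class II genes, with 95% exact Poisson bars and axes from 0 CPM. Pf4 goes from 6992 CPM in the lowest bin to 1608 CPM in the highest, and Cxcl2 peaks at 2687 CPM in the bin of 0.5 to 1%.

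A split by markers of origin gave a similar picture. Macrophages with a UMI of 7 genes of resident peritoneal macrophages and none of Ccr2, Ly6c2 and Plac8 (179 cells) were set beside those with the reverse (247 cells). Lyve1 supplied 249 of the 329 resident-list UMIs in macrophages, while Timd4 and Gata6, which define these cells, had 2 and 21. Pf4 was 1.84-fold (1.72 to 1.96) higher in it, at 6440 against 3505 CPM. Cxcl2 was lower in it, 0.662-fold (0.587 to 0.746), at 1168 against 1764 CPM, and so was Il1b, an inflammatory cytokine, at 12.6 against 123 CPM. Cxcl13 had 78 UMIs in 6 cells of the resident group, 43 of them in 1 cell, and 0 in the other, at least 25.6-fold higher taking 3 UMIs over the group as the limit. The macrophages with Cxcl13 held at most 5 Pf4 UMIs each, so the 2 genes were not high in the same cells. For Cxcl1, 1.42 (0.849 to 2.42), Cxcl14, 0.771 (0.392 to 1.49), and Cxcl16, 0.647 (0.365 to 1.13), the interval held 1.

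Within tumour-like cells Cxcl16 differed by the level of the glutathione transferases Gstm1 and Gstm2, a split chosen after Gstm1 was seen to have the lowest r with it (-0.21). In 105 cells with under 0.05% of their UMIs in the 2 genes, Cxcl16 was at 82.2 CPM (59.3 to 111). The level was 57.4 CPM (44.7 to 72.6) at 0.05 to 0.1%, 47.1 CPM (39.0 to 56.4) at 0.1 to 0.2%, 27.2 CPM (22.9 to 32.0) at 0.2 to 0.5%, and 16.3 CPM (13.9 to 18.9) in the 1933 cells with 0.5% or more. Cells below 0.1% thus held 3.99-fold (3.11 to 5.09) the Cxcl16 of cells at 0.5% or more, with median depths of 4930 and 5024 UMIs. Cxcl1 was 2.12-fold (1.63 to 2.73) higher in the cells below 0.1%, and the ratio for Cxcl10 was 0.774 (0.340 to 1.55). Cxcl2 was 2.07-fold (1.16 to 3.54) higher in them, at 11.1 CPM (6.68 to 17.3), on 19 UMIs of which 1 cell held 7, and the ratio for Pf4 was 1.12 (0.769 to 1.60).

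Krt19 and Wt1, genes of the tumour-like rule, lay between 495 and 548 CPM and between 386 and 459 CPM in these bins. Krt8 and Upk3b, also genes of the rule, were lower where Gstm was high, Krt8 at 186 CPM (150 to 227) in the lowest bin and 121 CPM (114 to 128) in the highest, and Upk3b at 388 CPM (336 to 446) and 285 CPM (275 to 296). Krt7, a keratin outside the rule, went the way of Cxcl16, from 114 to 4.88 CPM, and so did the matrix gene Mgp, 54.6-fold (34.3 to 91.6) higher below 0.1% than at 0.5% or more. The part these genes' cells play in the Cxcl16 difference was not tested.

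**Figure D5:**
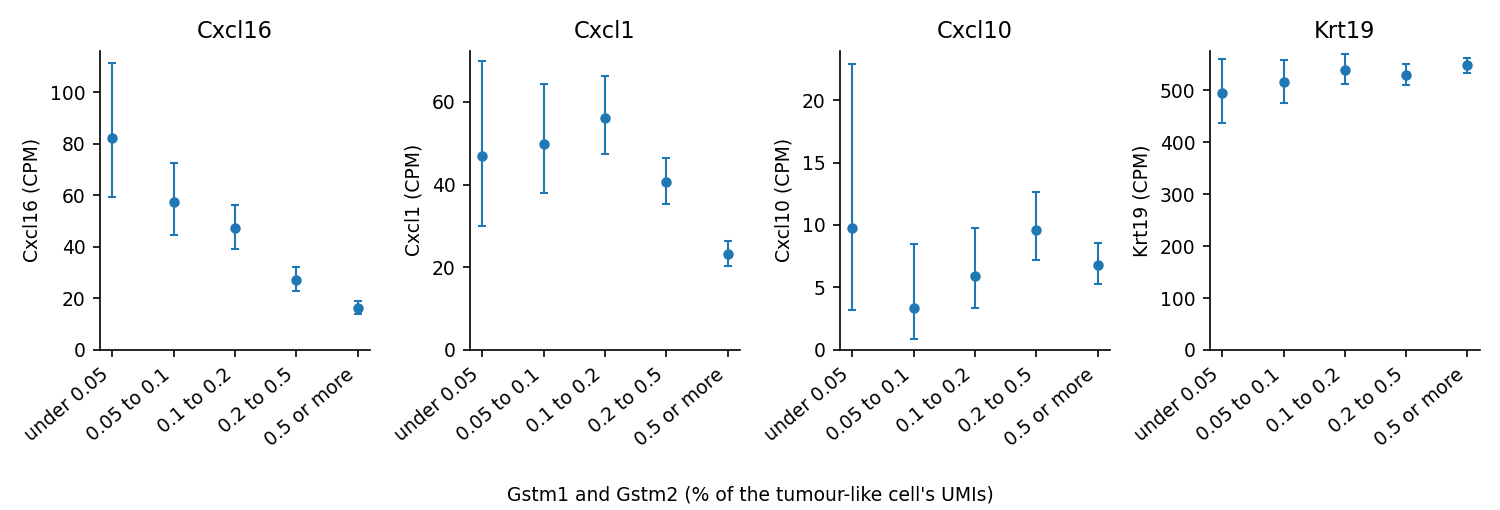
Level of Cxcl16, Cxcl1, Cxcl10 and, for comparison, Krt19 in tumour-like cells binned by the percentage of their UMIs in Gstm1 and Gstm2, with 95% exact Poisson bars and axes from 0 CPM. Cxcl16 goes from 82.2 to 16.3 CPM over the 5 bins, Cxcl1 is lowest at 23.1 CPM in the last bin, and Krt19 stays between 495 and 548 CPM.

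Cxcl1 was lower in tumour-like cells in division. With 2 or more UMIs of Top2a, Mki67, Birc5, Ube2c and Cdk1, 264 cells held 31 Cxcl1 UMIs, 14.99 CPM (10.2 to 21.3), against 598 UMIs and 37.5 CPM (34.5 to 40.6) in 3070 cells with none, a ratio of 0.400 (0.269 to 0.574). Nfkbia was lower as well, at a ratio of 0.738 (0.637 to 0.850), and so were Pf4, at 0.612 (0.394 to 0.913), and the matrix gene Mgp, at 0.391 (0.229 to 0.627). The part that free RNA and matrix-gene cells have in the Cxcl1 difference was not tested. Cxcl16, 1.08 (0.812 to 1.41), and Cxcl10, 1.22 (0.697 to 2.01), had intervals that held 1. The dividing cells were deeper, with a median of 7501 UMIs against 4808, and at 1000 UMIs a cell 3 of 263 and 95 of 3026 had Cxcl1.

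Tumour-like cells with Cxcl1 had more of several other genes in the jointly thinned draw. Nfkbia was found in 21.1% (14.0 to 29.7) of 114 such cells and 11.9% (10.9 to 13.0) of 3496 others, Cxcl16 in 7.02% (3.08 to 13.4) and 2.20% (1.74 to 2.75), and Cxcl17, a mucosal ligand also given a CXC name, in 5.26% (1.96 to 11.1) and 1.03% (0.722 to 1.42). Zfp36, which encodes a protein that destabilises cytokine RNA, was in 12.3% (6.88 to 19.7) and 5.64% (4.89 to 6.45). Cxcl10 was found in 2 of 114 and 20 of 3496, with intervals that overlapped. The interferon genes Isg15 and Irf1 also had overlapping intervals.

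Of 6 further CXC ligands on a list fixed by name, Cxcl17 was the only one with over 50 UMIs in kept cells. It had 289 UMIs in 245 tumour-like cells, 14.5 CPM (12.8 to 16.2), and 0 in macrophages, so that tumour-like cells were at least 9.18-fold higher taking 3 UMIs over all macrophages as the limit. Ppbp had 34 UMIs in kept cells, Cxcl3 had 9, Cxcl9 had 5, and Cxcl15 had none. Cxcl11 is not among the symbols of the table.

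The 9 inflammatory genes of the fixed list were all higher in macrophages than in tumour-like cells, with intervals that did not overlap, as for Cxcl1 and Cxcl2. Nfkbia was at 609 CPM (575 to 645) against 134 (129 to 140), and Ccl3 at 675 CPM (639 to 713) against 3.15 (2.42 to 4.03). Il1b stood apart from Cxcl2 in DC, where it was at 161 CPM (135 to 192) against 49.8 (40.3 to 60.9) in macrophages. Among interferon genes, a set that Cxcl10 is known to belong with, Irf7, at 2.55 CPM (1.90 to 3.35) in tumour-like cells against 11.5 (7.23 to 17.5) in macrophages, and Irf1, at 7.502 CPM (6.35 to 8.80) against 15.2 (10.2 to 21.9), were higher in macrophages.

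Among the receptors, Cxcr2, which binds Cxcl1, Cxcl2 and Cxcl5, had 6 UMIs in tumour-like cells, 1 in macrophages and 1 in DC. Cxcr4, the receptor of Cxcl12, had 34 UMIs in macrophages, 17.8 CPM (12.4 to 24.9), 22 in DC, 27.3 CPM (17.1 to 41.4), 13 in tumour-like cells, 0.650 CPM (0.346 to 1.11), and 4 in the 81 B cells, while Cxcl12 had 9 UMIs in all kept cells together. Cxcr3, the receptor of Cxcl10, had 9 UMIs in 9 DC and 3 in macrophages, while Cxcl10 had 2 UMIs in the whole DC class. Cxcr5, the receptor of Cxcl13, had 2 UMIs in DC and 1 in B cells. Cxcr6, the receptor of Cxcl16, had 3 UMIs, all in cells of no class, and Cxcr1 had none in kept cells. Dpp4, a protease that can trim Cxcl10 and Cxcl12, was at 67.1 CPM (50.4 to 87.5) in DC, 0.525 CPM in macrophages and 0.700 CPM in tumour-like cells.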

How the data were processed

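RNA of ascites cells was measured with a 10x Genomics assay in 1 library. The deposited matrix holds raw UMI counts per gene and barcode, per the file headers, with no selection of cells. Neither aligner nor build is given in the sources used here. The 35733776 UMIs were filtered to 6442 cells (500 to 19947 UMIs, median 3300), grouped by marker rules. UMIs were summed by class and scaled to CPM with exact Poisson intervals. Shares have exact Clopper-Pearson intervals, ratios exact conditional binomial intervals with cells of both classes left out, all at 95% and for counting error only. Free RNA was limited by the least raised of the 100 highest genes (haemoglobin, mitochondrial and class-rule genes left out) in barcodes with 1 to 50 UMIs. Doublets were not removed in the main values; Scrublet called 87 of 6442 cells. The steps were tested on simulated data. Alternatives were deeper cells, fewer mitochondrial UMIs, Scrublet removal, stricter classes, cells of several classes left out, and means over cells.

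The bulk table's 8 value columns carry names that match no sample label and were not used here. Named genes were the 9 members, lists of other CXC ligands, receptors, processing proteins and co-genes, and, for members with at least 200 UMIs, the 3 genes most alike at an r of at least 0.25. The members and lists were chosen with earlier results of these data known. Splits by MHC class II and Gstm genes, the 15-cell matrix group and the value without the 2 highest macrophages were added after the data were seen. Python 3.11.15, numpy 2.4.6, scipy 1.17.1 and scanpy 1.11.5 were used.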

Additional observations from a re-analysis of the deposited data

How the results depend on the processing

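The macrophage over tumour-like ratio was recomputed 49 times over 7 members and 7 alternatives, 1 of them added after the data were seen. In 47 it stayed within its 95% interval, and the 2 exceptions came from weighting every cell equally, with 1.94 for Cxcl1 and 205 for Pf4. Ratios between the highest and next highest class stayed within their interval in 25 of 30 cases. For Cxcl1, macrophages over cells with matrix genes, the ratio of 2.18 turned to 0.603 (0.310 to 1.34) when cells of more than 1 class were left out, which leaves 21 cells with matrix genes, and was 1.37 as a mean over cells. The same step moved Cxcl13 from 89.4 to 4.42. Cxcl2 over DC was 9.31 with at least 1000 UMIs a cell and 12.2 under stricter classes. For Cxcl10, the ratio between its 2 highest classes was not formed, since 97.1% of cells with matrix genes are tumour-like. Levels in the highest class moved outside their interval in 4 of 42 planned cases and thinned shares in 1 of 35. With barcodes of 100 to 200 UMIs as the free-RNA profile the limit for tumour-like cells was 44.5% of their UMIs in place of 4.66%, and 10 of 14 limits moved by over 1.5 times. No paired analysis was possible because the single-cell data are 1 library and no bulk column could be placed. With 1 library no value has an error between mice, and members under 10 UMIs in a class are limited by depth.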
